A study of Homo sapiens with 3 samples.

Results

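*IL18* and 9 genes of the epithelial cytokine and NF-κB circuit were examined in the HCT-116 transcriptome: the cytokine *IL18*, the chemokines *IL8* (now *CXCL8*), *CXCL1*, *CXCL2*, *CXCL3*, *CXCL5* and *CCL20*, the NF-κB inhibitors *NFKBIA* and *TNFAIP3*, and the *IL18*-processing protease *CASP1*. They are 10 of the 23131 gene symbols in the deposited table and were matched by symbol. *IL18* was selected on its transcript levels in these same libraries, so its difference is a description with no test. The other 9 genes were taken for their function, with earlier results of these libraries known.

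HCT-116 is a colon carcinoma line with wild-type *APC* and a mutated, degradation-resistant β-catenin, and all groups share both features. The study made 1 library from cells given a pool of anti-*APC* siRNA, 1 from cells given a pool of scrambled siRNA, and 1 from control cells, on the question of what changes in the transcriptome following APC silencing. Cells were transfected 2 times, on consecutive days, and RNA was taken 48 hours after the last transfection. The control is titled untransfected in the sample labels, whose treatment entry describes cells that received transfection reagent only. Values of the library from scrambled siRNA were not analysed here. Every difference given below, anti-*APC* siRNA against the untransfected library, therefore includes any effect of siRNA delivery, and of the reagent if the control received none. With 1 library per group, no difference has a replicate check and no p-value was computed.

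IL-18 is a cytokine of the IL-1 family that intestinal epithelial cells make constantly as an inactive precursor. Inflammasomes, complexes that join a sensor through the adaptor ASC (*PYCARD*) to caspase-1, cut it to the active form, which supports barrier repair and interferon-γ production by lymphocytes. The chemokines work differently: they are made on demand when NF-κB enters the nucleus, and they recruit neutrophils (the CXC members here, through the receptors CXCR1 and CXCR2) or lymphocytes and dendritic cells (CCL20, through CCR6). NF-κB also switches on its own brakes, IκBα (*NFKBIA*), which holds NF-κB in the cytoplasm, and A20 (*TNFAIP3*), a ubiquitin-editing enzyme that dampens signalling from TNF and Toll-like receptors.

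Transcript levels are in FPKM, the fragments counted for a transcript divided by its length and by the mapped reads of the library, so they can be compared between genes. Low FPKM values moved in steps of whole reads, from which 1 read was worth 1.10-fold more FPKM in the anti-*APC* library, and depths of about 23500000 and 25800000 reads were estimated for the anti-*APC* and untransfected libraries. *APC* itself was at 3.43 FPKM in the anti-*APC* library and 9.15 FPKM in the untransfected library, so 37.5% was left. Epithelial markers were present, 6 of 8 at a mean of at least 1 FPKM with sums of 1294 and 1650 FPKM, although the intestinal markers *CDH17* and *VIL1* stayed under 0.1 FPKM. No leukocyte marker of 7 reached 1 FPKM, their sums were 0.376 and 0.337 FPKM, and *MS4A1* was listed at 0 in both libraries. Of 6 stromal markers 1, *COL1A1*, exceeded 1 FPKM, and the sums of the list were 3.17 and 2.94 FPKM. Read counts given for single genes are estimates from these depths and annotated transcript lengths, unless the step gave whole reads. The 95% ranges built on them (Clopper-Pearson for ratios, Poisson for levels) cover counting error only.

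*IL18* was the most abundant of the 10 genes in both libraries. Its level was 34.0 FPKM following APC silencing and 50.9 FPKM in untransfected cells, with 95% counting ranges of 31.8 to 36.3 and 48.3 to 53.5 FPKM that did not overlap. Silenced cells thus held 66.8% of the control level, a log2 ratio of -0.58 with a counting range from -0.70 to -0.46, resting on about 891 and 1460 reads. The fold was 1.497 and so fell just short of 1.5. In bulk RNA, fewer cells expressing a gene and less of its RNA per cell cannot be told apart. Among 12063 genes with a mean of at least 1 FPKM in both libraries together, 809 (6.71%) had a ratio as low or lower. The median of all those genes was -0.05 on the log2 scale. The gene lies on the minus strand at chr11:112013976-112034819 of GRCh37, its main transcript has 6 exons, and no other gene shares its locus in the deposited table.

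*CASP1*, a protease that activates pro-IL-18, was listed at 0 FPKM in both libraries (chr11:104896124-104905977, minus strand). Its locus is shared with the caspase-1 regulators *CARD16* and *CARD17*, which were listed at 0 as well. The deposited table also lists at 0 every one of 269 genes for which the estimate failed, and although *CASP1* is marked as not tested rather than failed, a listed 0 is given here only as such. Several inflammasome parts of the same pathway rested on few reads. *PYCARD* was at 0.0733 FPKM in silenced and 0.335 FPKM in untransfected cells, which was 1 read against 5. The sensor *NLRP3* was at 0.0099 FPKM in both, and *AIM2* was listed at 0 in both. *NLRP1*, a sensor found in epithelial cells, was at 1.08 and 0.899 FPKM.

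Of 18 genes listed for *IL18* processing, binding and reception, 4 had a mean of at least 1 FPKM, with a median log2 ratio of -0.57. *CASP4*, which senses bacterial lipopolysaccharide inside the cell, was at 4.43 FPKM in silenced and 6.50 FPKM in untransfected cells. *GSDMD*, the pore-forming protein through which mature IL-18 leaves, was at 13.4 and 20.1 FPKM and was the most abundant of the list. Its log2 ratio of -0.58 was that of *IL18* to the second decimal. *CARD8* was at 4.94 and 4.65 FPKM. Among these 4, the lowest ratio belonged to *IL18BP*, the secreted decoy that binds IL-18, at 3.60 FPKM against 10.5 FPKM, a log2 ratio of -1.54. Its value is uncertain because 6 genes share that locus in the table, and *LRTOMT*, another of the 6, was higher in silenced cells at 8.36 FPKM against 3.30 FPKM. *NUMA1* and *LAMTOR1*, also there, had log2 ratios of -0.09 and -0.15. The receptor subunit *IL18R1* was under 1 FPKM in untransfected (0.829) and silenced cells (0.92). *IL18RAP*, the second subunit, was listed at 0 in silenced cells and at 0.0441 FPKM in untransfected cells. Within the IL-1 family of ligands, 11 of 16 listed genes are in the table and *IL18* was the single one with a mean of at least 1 FPKM. *IL1A* was at 0.116 and 0.12 FPKM (8 and 9 reads), and *IL33* was listed at 0 in both.

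The neutrophil-attracting chemokines were all under 2 FPKM, and 4 of the 5 under 1 FPKM. *IL8* was the highest of the 5 in both libraries, at 1.43 FPKM following APC silencing and 1.93 FPKM in untransfected cells (chr4:74606236-74609433, plus strand). Its log2 ratio was -0.44, and the counting range from -0.96 to 0.07 included 0, on about 55 and 82 reads. *IL18* was 23.8-fold more abundant than *IL8* in silenced cells and 26.4-fold in untransfected cells. *CXCL1* (chr4:74735110-74737025, plus strand) had the lowest ratio of any of the 10 genes, 0.374 against 0.723 FPKM. That is a log2 ratio of -0.95, but it rests on about 10 reads against 22 and its range ran from -2.25 to 0.13. *CXCL3* (chr4:74902306-74904524, minus strand) was at 0.271 and 0.381 FPKM, about 7 and 11 reads. *CXCL2* (chr4:74962757-74964913, minus strand) was at 0.357 and 0.362 FPKM, 9 reads against 10. *CXCL5* (chr4:74861359-74864394, minus strand) was at 0.123 and 0.128 FPKM, 7 reads against 8. The last 2 differed by less than 1 read after allowing for depth.

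Summed, the 5 chemokines stood at 2.55 FPKM in silenced and 3.52 FPKM in untransfected cells, a log2 ratio of -0.47, with *IL8* making up 55.9% and 54.7% of the sums. *CXCL1*, *CXCL2* and *CXCL3* are close copies. Their annotated transcripts share identical runs of 77 bases (*CXCL1* and *CXCL2*), 55 bases (*CXCL1* and *CXCL3*) and 97 bases (*CXCL2* and *CXCL3*), so reads from one can be counted for another. The sum of these 3, which depends on that division only through their slightly different lengths, was 1.00 FPKM against 1.47 FPKM, a log2 ratio of -0.55. *IL8* and *CXCL5* shared at most 18 bases with any of the others. Of the remaining genes of the list, *CXCL6* and *PPBP* were listed at 0 in both libraries, *CXCR1* had 3 reads and 1 read, and *CXCR2* was listed at 0 in silenced cells.

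*CCL20* (chr2:228670455-228682280, plus strand) had 1 read in each library, at 0.0623 FPKM in silenced and 0.0568 FPKM in untransfected cells. Its log2 ratio of 0.13 is the depth ratio alone, and its counting range of -6.16 to 6.43 says nothing of a difference. Its receptor *CCR6* was at 0.164 and 0.173 FPKM. Of all 23131 gene symbols, 5218 were at 0 in both libraries and 1624 in one. Of 36 chemokines listed outside the neutrophil-attracting group, *CCL20* included, 22 were at 0 in both libraries and 8 in one. The single one whose mean reached 1 FPKM was *CXCL16*, a membrane-anchored chemokine, at 15.8 FPKM in silenced and 20.2 FPKM in untransfected cells, a log2 ratio of -0.36 at a locus shared with *MED11*. It was therefore more abundant than all 5 neutrophil-attracting chemokines together.

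**Figure D1:**
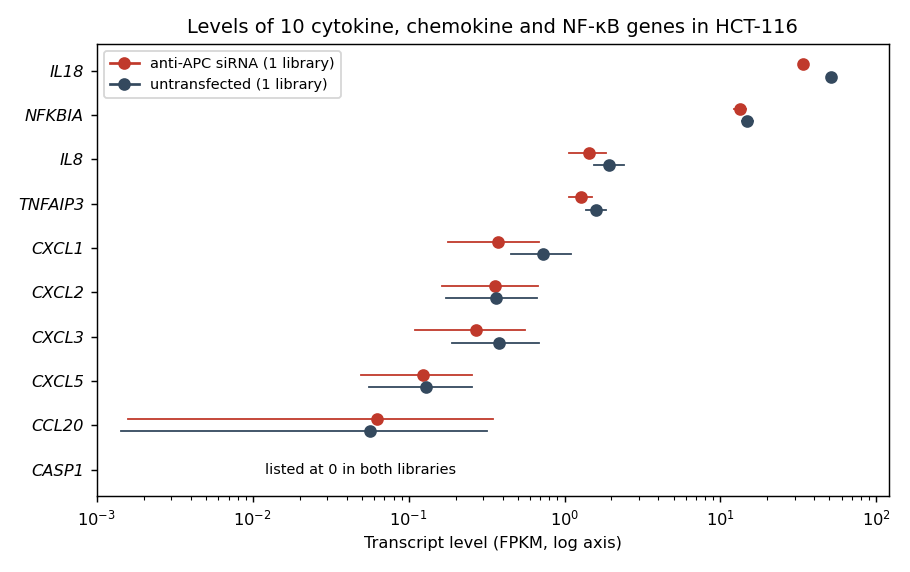
Transcript level (FPKM, log axis) of the 10 genes in the anti-*APC* siRNA library (red) and the untransfected library (dark blue), 1 library each. Lines are 95% Poisson counting ranges. *IL18* (34.0 and 50.9 FPKM) and *NFKBIA* (13.3 and 14.9 FPKM) stand above the chemokines, all under 2 FPKM, and *CASP1* is listed at 0.

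The brakes of NF-κB were better covered. *NFKBIA* (chr14:35870285-35873955, minus strand) was at 13.3 FPKM following APC silencing and 14.9 FPKM in untransfected cells, a log2 ratio of -0.16 with a range from -0.33 to 0.02 on about 489 and 597 reads. *TNFAIP3* (chr6:138188351-138204451, plus strand) was at 1.27 and 1.60 FPKM, a log2 ratio of -0.33 on about 140 and 192 reads. Its counting range, -0.65 to -0.0025, ended at the edge of 0. The ranges of the levels themselves, up to 1.505 FPKM in silenced cells and from 1.38 FPKM in untransfected cells, overlapped.

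The order of levels was the same in both libraries for the first 5 genes: *IL18*, *NFKBIA*, *IL8*, *TNFAIP3* and *CXCL1*. *IL18* exceeded *NFKBIA* 2.55-fold in silenced and 3.42-fold in untransfected cells. Neighbours whose counting ranges overlapped in both libraries were *IL8* and *TNFAIP3*, and every pair of neighbours from *CXCL1* downward. *CXCL2* and *CXCL3* traded places between libraries within those ranges.

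Across the 10 genes, 9 were above 0 in both libraries, 8 of them lower in silenced cells and 1 higher, with a median log2 ratio of -0.33. *CXCL2*, *CXCL5* and *CCL20* among them differed by less than 1 read after allowing for depth. The share of all genes on the lower side was not counted, so nothing is read from these directions. *CXCL2* moved to the higher side (0.03) once the median of all genes was subtracted, or the upper quartiles made equal (0.02). Only 4 genes had a mean of at least 1 FPKM: *IL18*, *IL8*, *NFKBIA* and *TNFAIP3*. Of these, 0 were at least 1.5-fold lower, against 6.61% of all 12063 genes at that level, and 0 were at least 1.5-fold higher, against 2.56%. At a log2 difference of at least 0.32, 3 of the 4 were lower (*IL18*, *IL8* and *TNFAIP3*) and 0 higher, where all genes gave 18.4% and 7.17%. *TNFAIP3* fell short of that difference when the median of all genes was subtracted (-0.28), the upper quartiles were made equal (-0.29) or 0.1 FPKM was added (-0.31), and with a pseudocount of 1 FPKM both *TNFAIP3* (-0.19) and *IL8* (-0.27) did, which left *IL18* (-0.57). Ratios spread more widely at low levels, and the background moved with them. *IL8* and *TNFAIP3*, both lower by that much, fall in the range of 1 to 10 FPKM where 29.0% of genes were. *IL18* and *NFKBIA*, of which *IL18* was lower by that much, fall in the range of 10 to 100 FPKM where 11.1% were. Because *IL18* was chosen by its level in these libraries, nothing is read from its count against these shares.

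**Figure D2:**
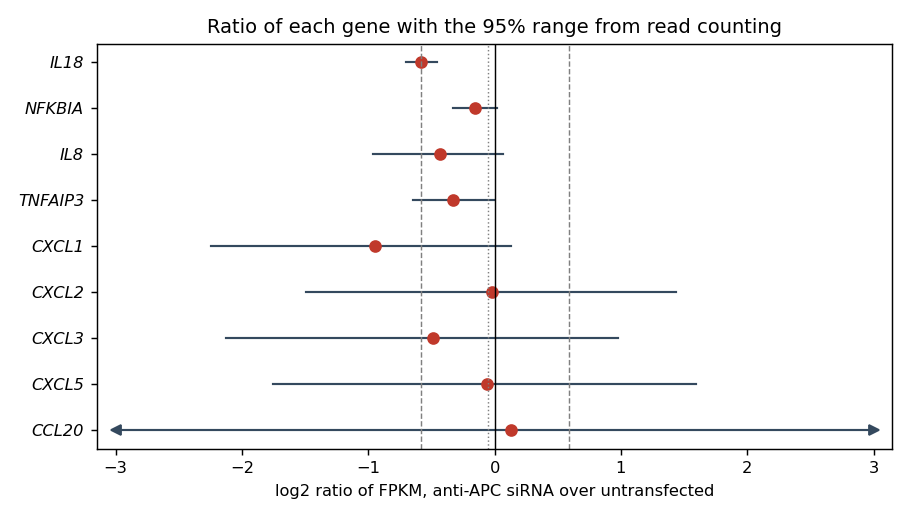
The log2 ratio of FPKM, anti-*APC* siRNA over untransfected, for the 9 genes above 0 (red points), with 95% ranges from read counting (lines, clipped at the arrows for *CCL20*). The dotted line is the median of all genes (-0.05) and the dashed lines mark 1.5-fold. The range of *IL18*, -0.70 to -0.46, lies wholly below 0, that of *TNFAIP3* ends at its edge, and the other 7 include it.

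**Figure D3:**
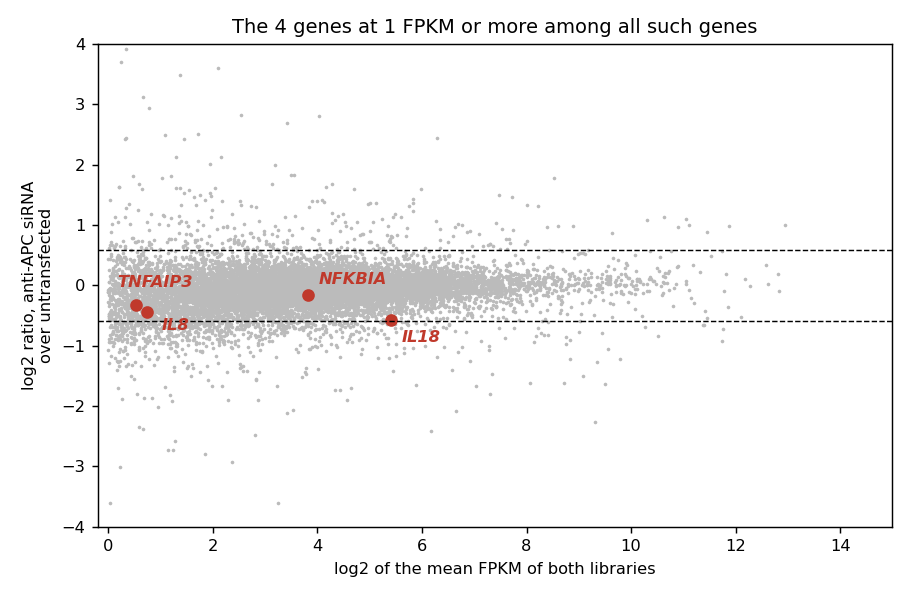
The log2 ratio, anti-*APC* siRNA over untransfected, against the log2 mean FPKM for 12063 genes (grey points; 3 lie outside the axes), with the 4 genes at a mean of at least 1 FPKM in red and dashed lines at 1.5-fold. *IL18* sits just inside the lower dashed line, and *NFKBIA*, *IL8* and *TNFAIP3* lie inside the cloud.

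The DNA before the RefSeq starts of these genes was searched for shared motifs. RefSeq windows (GRCh38.p14) of 250 bases before the start were matched to 8 of the 10 genes, *IL18* and *CASP1* not among them, and placed on GRCh37 by exact match. The GENCODE gene spans given above begin farther upstream for *IL8*, *CXCL3*, *CCL20* and *TNFAIP3*, and marginally so for *CXCL2*. The stretches printed for *IL8* and *CXCL2* still lie outside their spans. Those of *CXCL3* and *CCL20* lie inside their spans, and that of *TNFAIP3* overlaps the edge of its span. The motifs were searched on both strands. A κB core, GGAATTTCC, was present in 6 of the 8 (*IL8*, *CXCL1*, *CXCL2*, *CXCL3*, *CXCL5* and *NFKBIA*), against 0.413% of 35116 windows of the same length. The broader NF-κB consensus, which overlaps the core where both match, was present in 7 of the 8, every one but *IL8*, against 6.88% of windows. Because 8 of the 10 genes are listed NF-κB targets, κB matches follow from how the genes were chosen. *CXCL1*, *CXCL2* and *CXCL3* are also close copies, so their matches are not separate cases, and no enrichment is read from these counts. Stretches around the κB matches are printed for 4 CXC genes on chromosome 4, because they show how far *CXCL1*, *CXCL2* and *CXCL3* resemble each other and *CXCL5* does not. Capitals mark the NF-κB consensus match, which begins 79 bases before the start in *CXCL1* and *CXCL3*, 78 in *CXCL2* and 91 in *CXCL5*, where the start is that of RefSeq.
CXCL1 (chr4:74735000-74735069, plus strand): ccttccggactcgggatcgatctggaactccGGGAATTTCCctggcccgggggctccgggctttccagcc
CXCL2 (chr4:74964953-74965022, minus strand): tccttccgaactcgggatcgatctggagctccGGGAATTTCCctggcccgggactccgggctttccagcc
CXCL3 (chr4:74904447-74904516, minus strand): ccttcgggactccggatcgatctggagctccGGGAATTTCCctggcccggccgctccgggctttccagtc
CXCL5 (chr4:74864435-74864504, minus strand): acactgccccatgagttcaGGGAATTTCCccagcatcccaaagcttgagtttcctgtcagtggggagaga

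Over the κB match and the 30 bases before it, *CXCL1* and *CXCL2* were identical at 38 of 40 bases, and *CXCL3* matched each of them at 37 of 40. *CXCL5* matched these 3 at 47.5% to 50.0% of the 40 bases. *IL8* is printed because it alone held an AP-1 match, TGANTCA, found in 6.57% of windows, and, with *CCL20*, a match to the WNT-pathway TCF motif. That motif was searched as CAAAG preceded by 2 bases that are each A or T, and occurred in 12.0% of windows. In the *IL8* stretch the capitals are, in order, the TCF match, the AP-1 match and the κB core.
IL8 (chr4:74606086-74606215, plus strand): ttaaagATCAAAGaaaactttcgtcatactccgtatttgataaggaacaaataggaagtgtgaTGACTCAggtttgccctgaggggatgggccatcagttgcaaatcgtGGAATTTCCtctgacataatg

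Of the remaining genes, *CCL20* and *TNFAIP3* differ in the letters of the site. *NFKBIA* holds the same letters as *CXCL1*, read on the other strand. In the stretches of *CCL20*, *NFKBIA* and *TNFAIP3* capitals again mark the NF-κB consensus, of which *TNFAIP3* held 2 copies side by side.
CCL20 (chr2:228678448-228678517, plus strand): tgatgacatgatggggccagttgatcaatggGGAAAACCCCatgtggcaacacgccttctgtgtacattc
NFKBIA (chr14:35873996-35874065, minus strand): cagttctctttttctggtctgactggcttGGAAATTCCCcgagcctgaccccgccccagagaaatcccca
TNFAIP3 (chr6:138188286-138188355, plus strand): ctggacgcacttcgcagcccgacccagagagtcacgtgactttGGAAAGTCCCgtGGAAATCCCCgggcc

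These matches are descriptions of letters. Every gene searched held a κB match, so there was no gene without one for comparison. Their log2 ratios ran from -0.95 (*CXCL1*) to 0.13 (*CCL20*), and the counting ranges of both included 0. Their reads in untransfected cells ran from 1 to about 597. Any relation of the match to level or ratio was not tested.

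**Figure D4:**
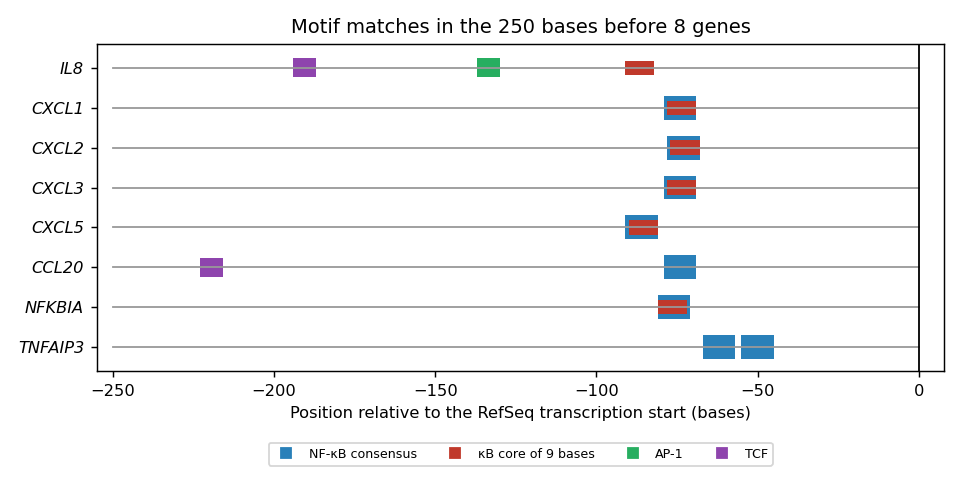
Motif matches by distance (bases) from the RefSeq transcription start in 8 genes: NF-κB consensus (blue), κB core of 9 bases (red), AP-1 (green) and TCF (purple). κB matches lie within 100 bases of the start in all 8 genes, and *IL8* and *CCL20* hold the TCF matches farther out.

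Most listed genes of the machinery that drives NF-κB had a mean of at least 1 FPKM, as did 12063 of all 23131 gene symbols. Of 44 genes listed as subunits, inhibitors and kinases, *NFKBIA* and *TNFAIP3* among them, 39 had a mean of at least 1 FPKM, 3 were at least 1.5-fold lower in silenced cells and 1 higher, with a median log2 ratio of -0.12. *BCL3*, an IκB-like nuclear cofactor, was at 3.18 FPKM against 5.95 FPKM in untransfected cells. *IRAK2*, a kinase of Toll-like and IL-1 receptor signalling, was at 1.40 against 2.36 FPKM, and *CARD10*, a scaffold that activates NF-κB, at 7.68 against 12.9 FPKM. The gene on the higher side was *MALT1*, the paracaspase that works with CARD scaffolds, at 54.4 FPKM against 31.2 FPKM, a log2 ratio of 0.80. Over all genes with a mean of at least 1 FPKM, 6.61% were at least 1.5-fold lower and 2.56% higher. *CHUK*, the kinase IKKα and the most abundant of the list by the mean of both libraries, was at 53.5 and 46.4 FPKM.

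Among 48 listed NF-κB target genes, which include 8 of the 10 genes here, 28 had a mean of at least 1 FPKM. *BCL3* was 1 of them and the sole one at least 1.5-fold lower, *KLF6*, a zinc-finger factor, was the sole one higher (54.7 against 35.7 FPKM), and the median was -0.09. *IER3*, an early-response gene, was the most abundant at 204 and 215 FPKM, on a row placed on an alternate haplotype of chromosome 6. Without the 10 genes themselves, the target list had a median of -0.04. The shares over all genes were again 6.61% at least 1.5-fold lower and 2.56% higher.

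Messages of many inducible chemokines are decayed through AU-rich elements. All 11 listed binding proteins of such elements had a mean of at least 1 FPKM, 0 reached 1.5-fold in either direction, and their median log2 ratio was 0.02. Over all genes with such a mean, 6.61% were at least 1.5-fold lower and 2.56% higher, so with 11 genes nothing is read from the 0. *HNRNPD* was the most abundant at 294 and 288 FPKM.

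Of 28 other epithelial cytokines listed, 7 had a mean of at least 1 FPKM, 3 of them at least 1.5-fold lower in silenced cells and 0 higher, with a median of -0.44. *LIF*, a cytokine of the IL-6 family, was at 7.76 against 12.1 FPKM. *CSF1*, the macrophage growth factor, was at 0.787 against 1.35 FPKM, and *CLCF1*, at a locus shared by 3 genes, at 3.21 against 6.07 FPKM. *MIF*, the most abundant cytokine of the list, was at 364 and 449 FPKM. Of 37 cytokine and Toll-like receptors, 25 had a mean of at least 1 FPKM, 8 at least 1.5-fold lower and 0 higher, with a median of -0.32. They included *IL15RA* (1.73 against 3.60 FPKM), *IL1R1*, the receptor of IL-1 (2.71 against 4.93 FPKM), and *OSMR*, the oncostatin M receptor (13.2 against 22.1 FPKM). *TNFRSF12A*, the most abundant, was at 57.5 and 74.6 FPKM. At a log2 difference of at least 0.32, 12 receptors were lower and 3 higher. Over all genes with a mean of at least 1 FPKM, 6.61% were at least 1.5-fold lower and 2.56% higher. At a log2 difference of 0.32 those shares were 18.4% and 7.17%.

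Over all 9 lists without the 10 genes, 101 genes had a mean of at least 1 FPKM, of which 15 (14.9%) were at least 1.5-fold lower and 2 (1.98%) higher, beside 6.61% and 2.56% of all genes. Their median log2 ratio was -0.12, and that of all genes -0.05. These lists were drawn up knowing earlier results, so the shares are descriptions. The listed genes were not matched to all genes by level, and ratios spread more widely at low levels.

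**Figure D5:**
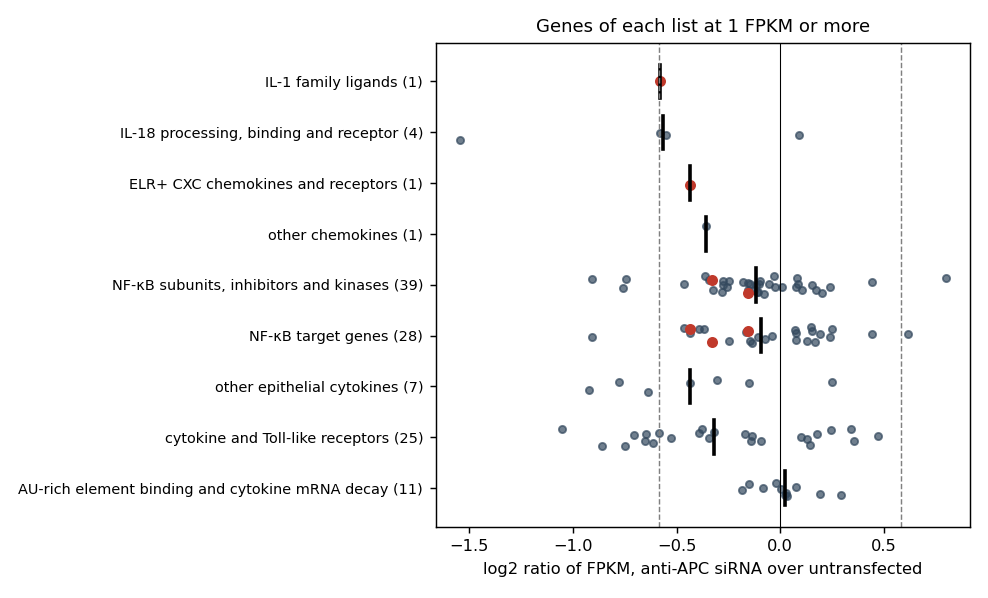
The log2 ratio of FPKM, anti-*APC* siRNA over untransfected, for genes of each of 9 lists with a mean of at least 1 FPKM (number in brackets). Red points are the genes described here, dark blue points other genes, black bars medians, and dashed lines 1.5-fold. Receptors and other cytokines have medians of -0.32 and -0.44, NF-κB machinery and targets -0.12 and -0.09, and the proteins of cytokine mRNA decay 0.02.

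By the distance between their pairs of log2 levels in both libraries, the 5 genes nearest to *IL18* were *SUCLG1*, *SHC1*, *CDC42EP1*, *ISYNA1* and *MIR637*, at distances of 0.03 to 0.08. *SUCLG1*, a subunit of mitochondrial succinyl-CoA ligase, was at 33.6 FPKM in silenced and 51.8 FPKM in untransfected cells. *SHC1*, an adaptor of receptor tyrosine kinases, was at 35.2 and 51.7 FPKM. *MIR637* is a microRNA gene, and whether its reads came from an overlapping gene was not checked. This likeness rests on 2 libraries and describes the size of their levels only.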

How the data were processed

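RNA of HCT-116 cells was sequenced as single reads from TruSeq libraries, and the authors estimated transcript levels with Cufflinks and compared libraries with Cuffdiff on hg19, per the labels. The aligner, tool versions and annotation are not given in the sources used here. The deposited values used here are the authors' FPKM in 2 libraries, anti-*APC* siRNA and untransfected. The table's columns of the authors' own comparison (natural log fold change, test statistic, p-value, q-value and significance call) were not used.

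Log2 ratios are anti-*APC* siRNA over untransfected, without a pseudocount, for genes above 0 in both libraries. Folds of 1.5 and log2 differences of 0.32 were counted among genes with a mean of at least 1 FPKM. Relative depth came from FPKM ratios of 2622 genes under 0.3 FPKM, of which 51.7% were whole-read pairs up to 10 reads (tolerance 0.02%). Depth came from single-transcript genes (26 and 24) of GENCODE 44 on GRCh37, and read counts carry that uncertainty. The recovery of depth was tested on simulated data. Coordinates are GENCODE's, 1-based, on GRCh37. Promoter windows are RefSeq's. Calculations used numpy 2.4.6, scipy 1.17.1 and pandas 2.3.3 under Python 3.11.15, and plots matplotlib 3.10.9.

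The genes and the 9 lists were chosen with earlier results of these data known. Named besides them are up to 3 list genes in each direction with the largest ratios past 1.5-fold and 1 FPKM, the most abundant gene of each list, the 5 genes nearest *IL18*, and *APC*. Other inflammasome parts, chemokines, receptors and genes sharing a locus were added with their values in view. The alternatives tried were pseudocounts, fold and level minimums, median centring, upper-quartile scaling and summing *CXCL1*, *CXCL2* and *CXCL3*.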

Additional observations from a re-analysis of the deposited data

How the results depend on the processing

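Of 39 alternatives for the log2 ratios of single genes (pseudocounts of 0.1 and 1 FPKM, median centring, upper-quartile scaling, summed *CXCL1*, *CXCL2* and *CXCL3*), 0 left the counting range, but these ranges are so wide for the chemokines that this says little. After adding 1 FPKM to both libraries, the log2 ratio of *CXCL1* went from -0.95 to -0.33, that of *CXCL3* from -0.49 to -0.12, that of *IL8* from -0.44 to -0.27 and that of *TNFAIP3* from -0.33 to -0.19, and summing the 3 copies took *CXCL2* from -0.02 to -0.55. The number of the 10 genes at least 1.5-fold lower went from 0 to 3 at a log2 difference of 0.32, and to 1 (*CXCL1*) with a minimum of 0.5 FPKM or none. For the other listed genes, 15 lower and 2 higher became 30 and 6 at that difference, 2 and 0 at 2-fold, and 27 and 7 with no minimum; 8 were lower at a minimum of 5 FPKM. Over all genes, 797 lower and 309 higher became 2219 and 865 at it, 165 and 115 at 2-fold, 347 and 186 at a minimum of 5 FPKM, and 2078 and 1084 with no minimum. With a pseudocount of 1 FPKM, 448 were lower. Counts under different minimums rest on different numbers of genes, so they cannot be compared as shares between settings or between listed and all genes. No paired analysis was possible because each group has 1 library. Depth limits the chemokines: the counting ranges of all 6 of their ratios included 0.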

Other observations

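Some genes of the lists under the minimum of 1 FPKM differed in size, and they were picked out after their values were seen. *LCN2*, the iron-scavenging lipocalin and an NF-κB target, was at 0.0641 FPKM in silenced and 0.527 FPKM in untransfected cells, 1 read against 9. *CXCR4*, the receptor of CXCL12, was at 0.878 FPKM in silenced and 0.299 FPKM in untransfected cells. *PTGS2*, the inducible cyclooxygenase, was at 0.397 and 0.236 FPKM. *TNF* was listed at 0 in silenced and at 0.0247 FPKM in untransfected cells, and *IL6* at 0.0404 FPKM and 0. The values of *TNF* and *IL6* lie at the floor and say nothing of a difference.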
